A study of Mus musculus with 3 samples.

Results

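The Serpina3 gene cluster of mouse chromosome 12 was examined in the open chromatin of sorted hair follicle stem cells (HFSCs). Its 9 members are Serpina3c, Serpina3f, Serpina3g, Serpina3h, Serpina3i, Serpina3j, Serpina3k, Serpina3m and Serpina3n. They were chosen by the called promoter peaks of Serpina3g, which was open in Msx2-WT alone, so that pattern is described here without a test. Of the 9 genes, 8 are among the 21851 protein-coding genes whose promoters were examined, and Serpina3h is annotated as a transcribed unprocessed pseudogene. The stretch studied ran from the first to the last member with 20 kb added on each side (chr12:104126382-104434329, GRCm38, 308 kb). It held 16 of the 46444 open regions of chromosomes 1 to 19, where a region is a set of peaks from any of the 3 libraries that share at least 1 base.

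The assay was Omni-ATAC-seq, where Tn5 transposase inserts sequencing adapters into accessible DNA, and the cells were dorsal skin HFSCs of 6-month-old mice in telogen, when hair follicles rest. The wild-type group (Msx2-WT, 1 library) came from untreated C57BL/6J mice, and the knockout group (Msx2-KO, 2 libraries) from untreated mice homozygous for an Msx2 allele with a neo cassette inserted before exon 2, a germline change carried by every cell. HFSCs were sorted as CD34+ CD49f+ Sca-1- cells. The Msx2-WT library had one batch date and both Msx2-KO libraries had a different one, which means that genotype cannot be told apart from batch. With 1 Msx2-WT library there was no test between genotypes. No source says whether the Msx2-KO reps came from separate mice. Inside the lists, the peaks of both Msx2-KO libraries are named cKO rather than KO, and for rep 1 the library number in these names is not that of the label. The labels were followed.

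Serpins are protease inhibitors that trap their target by a loop which the protease cuts and which then locks both proteins together. The human genome has one SERPINA3 gene, for alpha-1-antichymotrypsin, and in the mouse this gene was copied in tandem into a cluster whose members differ mostly in that loop. Serpina3n encodes a secreted acute-phase inhibitor of granzyme B and neutrophil elastase, Serpina3g an inhibitor of lysosomal cathepsins that works inside the cell and is induced by interferon in blood cells, and Serpina3k a plasma serpin made mainly by the liver. STAT factors, which carry interferon and interleukin-6 signals to the nucleus, are known to switch on several genes of this family, and AP-1 is a Fos and Jun dimer that is active in epidermal cells.

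The sequences before 4 of the start sites are shown first, because these 4 genes, Serpina3f, Serpina3g, Serpina3h and Serpina3i, stand next to each other, have long stretches of alike upstream DNA and hold most of the promoter peaks of the cluster. Each line gives 250 bases on the plus strand of GRCm38, and capitals mark the STAT motif TTCNNNGAA. The lines for Serpina3f, Serpina3g and Serpina3i are the RefSeq promoter entries (GRCm38.p6) up to the RefSeq start at chr12:104214294-104214543, chr12:104235897-104236146 and chr12:104262872-104263121, and the last is the genome before the GENCODE start of Serpina3h at chr12:104247655-104247904.
Serpina3f: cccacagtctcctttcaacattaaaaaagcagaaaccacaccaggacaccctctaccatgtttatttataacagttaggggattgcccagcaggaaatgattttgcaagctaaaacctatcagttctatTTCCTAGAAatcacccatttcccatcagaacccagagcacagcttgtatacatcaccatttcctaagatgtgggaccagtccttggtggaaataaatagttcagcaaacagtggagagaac
Serpina3g: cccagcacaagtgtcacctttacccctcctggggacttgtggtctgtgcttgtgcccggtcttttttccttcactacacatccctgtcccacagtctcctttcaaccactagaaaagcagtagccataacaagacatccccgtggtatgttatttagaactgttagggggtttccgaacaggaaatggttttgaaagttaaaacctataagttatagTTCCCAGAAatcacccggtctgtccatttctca
Serpina3i: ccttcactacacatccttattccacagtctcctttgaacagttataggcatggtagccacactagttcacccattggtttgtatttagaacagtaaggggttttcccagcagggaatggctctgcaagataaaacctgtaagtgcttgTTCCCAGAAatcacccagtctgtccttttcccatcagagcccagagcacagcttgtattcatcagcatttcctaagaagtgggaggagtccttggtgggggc
Serpina3h: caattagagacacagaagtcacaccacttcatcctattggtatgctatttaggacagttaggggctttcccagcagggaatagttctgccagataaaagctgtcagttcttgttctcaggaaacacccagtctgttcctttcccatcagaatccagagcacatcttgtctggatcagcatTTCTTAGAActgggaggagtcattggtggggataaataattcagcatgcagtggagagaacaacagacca
The motif read TTCCTAGAA in Serpina3f and TTCCCAGAA in both Serpina3g and Serpina3i, and it began 121, 33 and 102 bases before their RefSeq starts. For Serpina3g the RefSeq start lies upstream of the GENCODE start used for its peaks, chr12:104236252. In Serpina3h the letters were TTCTTAGAA, 70 bases before the start, at another place in the alike sequence. Where the other lines hold the motif, Serpina3h reads ttctcaggaaacaccc, which is not a match. RefSeq promoter entries were found for 6 of the 9 members (Serpina3c, Serpina3f, Serpina3g, Serpina3i, Serpina3j and Serpina3n), and 3 of these 6 held the motif, beside 8.30% of all 32815 RefSeq promoters of 300 bases. The 3 were Serpina3f, Serpina3g and Serpina3i, and as copies of each other they are not separate cases. The interferon-stimulated response element, AP-1 TGANTCA and homeodomain TAATTG motifs were in none of the 6 entries, beside 3.43%, 7.81% and 8.00% of all promoters, and the TATA box TATAAA was in 2, those of Serpina3c and Serpina3f, beside 13.6%. Motifs were searched on both strands, and a match describes the letters only.

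The likeness of these promoters ran far upstream of the start site. Over 1000 bases before the start, Serpina3g and Serpina3i matched at 88.0% of 958 aligned columns and Serpina3f and Serpina3g at 82.2% of 1002. Across the 6 pairs of the 4 genes, identity was 75.3 to 88.0% over 694 to 1011 columns. Serpina3c and Serpina3n matched each other at 86.4% of 359 columns, and they matched Serpina3g at 65.6% of 349 and 64.9% of 487 columns. Serpina3k and Serpina3m share one annotated start, and the upstream sequence there is therefore the same.

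The upstream summits of Serpina3f, Serpina3g and Serpina3i are shown next because they lie in the same copied element. A summit is the base with the most tags in a peak, and each window holds 300 bases around it on the plus strand of GRCm38. The Serpina3f window is centred on the Msx2-KO rep 2 summit (chr12:104213877-104214176), that of Serpina3g on the Msx2-WT summit (chr12:104235438-104235737) and that of Serpina3i on the upstream Msx2-WT summit (chr12:104262462-104262761). Capitals mark the longest run that all 3 windows share, 45 bases.
Serpina3f: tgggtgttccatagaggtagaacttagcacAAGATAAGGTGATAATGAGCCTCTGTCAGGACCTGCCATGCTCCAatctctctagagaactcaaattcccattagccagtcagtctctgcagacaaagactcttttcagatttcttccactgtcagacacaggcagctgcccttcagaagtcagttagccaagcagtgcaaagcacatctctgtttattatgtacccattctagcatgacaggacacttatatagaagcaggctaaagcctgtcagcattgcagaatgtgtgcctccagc
Serpina3g: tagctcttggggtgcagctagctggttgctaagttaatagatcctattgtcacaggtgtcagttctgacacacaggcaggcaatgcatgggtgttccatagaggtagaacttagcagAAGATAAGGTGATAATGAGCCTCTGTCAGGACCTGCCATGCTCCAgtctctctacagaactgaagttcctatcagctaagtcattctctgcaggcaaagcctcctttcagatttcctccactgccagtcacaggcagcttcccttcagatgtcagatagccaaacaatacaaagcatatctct
Serpina3i: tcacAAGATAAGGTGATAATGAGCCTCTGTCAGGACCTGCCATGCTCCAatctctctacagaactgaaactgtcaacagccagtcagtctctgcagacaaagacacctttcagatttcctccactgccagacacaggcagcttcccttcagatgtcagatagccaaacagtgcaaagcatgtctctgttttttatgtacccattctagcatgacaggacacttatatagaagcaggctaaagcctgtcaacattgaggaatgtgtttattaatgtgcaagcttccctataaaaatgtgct
The shared run began 120 bases before the Serpina3f summit, 33 bases before the Serpina3g summit and 146 bases before the Serpina3i summit. Likeness of this kind bears on read placement. Of the 50-base words of the Serpina3g region, 4.97% occurred elsewhere in the genome as an exact copy, and the shares were 12.3% for the Serpina3f region, 6.92% for the Serpina3h region and 7.30% for the Serpina3i region. How the aligned reads with equal matches were handled is not given in the sources used here, and the part this played was not tested.

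The lists hold no read totals, so depth was read from the tag numbers at the summits, where a tag is an aligned read end as the peak caller counts it. The commonest local background was 1.74 tags in Msx2-WT, 0.476 in Msx2-KO rep 1 and 0.790 in Msx2-KO rep 2, and below it a level is given as tags divided by this background. Over the 12824 autosomal regions that all 3 libraries shared, the median was 13.2, 23.1 and 30.4 times background, and dividing by that median gives a second scale, the level relative to the library median. A peak was called where its q-value was under 0.01, which took at least 9, 5 and 6 tags, and peaks listed above that limit are given as below the threshold. The promoter of the targeted gene Msx2 was called in all 3 libraries with 15, 9 and 16 tags, and since the inserted cassette leaves the promoter in place this does not check the genotype. Marker promoters were read as a check of the sort. Of 13 HFSC markers 9, 9 and 12 were called, of 18 leukocyte markers 2, 0 and 1 with Ptprc, Cd3e and Spi1 listed in no library, and of 6 markers of the interfollicular epidermis 5, 1 and 2. Of 7 melanocyte markers 3, 2 and 3 were called, with Dct and Pmel in every library, of 7 dermal fibroblast markers 2, 1 and 3, and of 6 endothelial markers 0, 1 and 2. The HFSC markers Lgr5 and Tbx1, the fibroblast collagen gene Col1a2 and the endothelial receptor gene Tek were called in both Msx2-KO libraries and listed below the threshold in Msx2-WT, with 7, 9, 6 and 7 tags there.

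Peaks were called near the start of 3 of the 8 protein-coding members in Msx2-WT, of 0 in Msx2-KO rep 1 and of 3 in Msx2-KO rep 2, where a promoter peak has its summit within 1500 bases of a start. Over all protein-coding genes the shares were 47.1%, 37.9% and 53.7%. The genes were Serpina3f, Serpina3g and Serpina3i in Msx2-WT and Serpina3f, Serpina3i and Serpina3n in Msx2-KO rep 2. Serpina3c, Serpina3j, Serpina3k and Serpina3m had no listed promoter peak in any library, even below the threshold. Msx2-KO rep 1 had the lowest background, 0.476 tags. There a shared region had a median of 23.1 times background, and a call took at least 5 tags. Absence from its list does not show a closed promoter, and the part of depth was not tested.

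**Figure D1:**
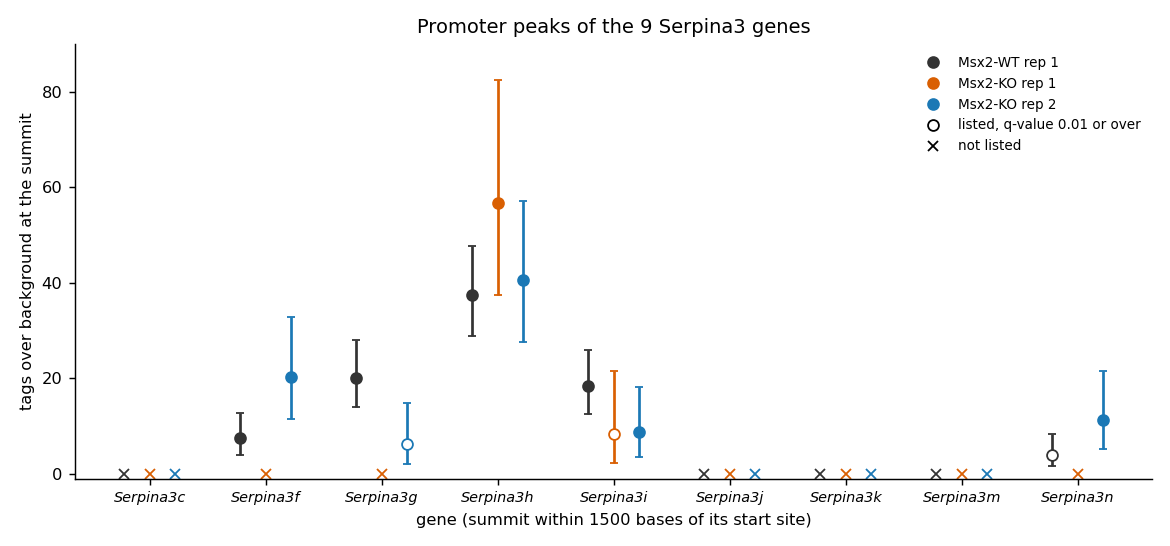
Tags over background at the best promoter summit of each of the 9 genes (y axis, linear, with 95% Poisson intervals of the tag number) by gene and library. Serpina3h stood highest in each library, Serpina3g was called in Msx2-WT alone, and Serpina3c, Serpina3j, Serpina3k and Serpina3m were listed nowhere.

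Serpina3g (ENSMUSG00000041481.16, plus strand, chr12:104236245-104241939) was the gene by which the group was chosen. In Msx2-WT its peak spanned chr12:104235361-104236254 with 35 tags at the summit (95% Poisson interval 24.4 to 48.7), 664 bases before the start. Distances at Serpina3g are from a protein-coding transcript start at chr12:104236252, which is not the first base of the gene. Msx2-KO rep 1 had no listed peak, and Msx2-KO rep 2 had a listed peak of 5 tags (1.62 to 11.7) with its summit 564 bases before the start. The peak was thus high in Msx2-WT, low in Msx2-KO rep 2 and unlisted in Msx2-KO rep 1. Against the threshold of 2.0 in −log10 q, the Msx2-WT peak was inside at 24.1 and the Msx2-KO rep 2 peak outside at 1.61. A promoter peak in Msx2-WT alone was found at 2.11% of all protein-coding genes, and in both Msx2-KO libraries but not Msx2-WT at 2.32%.

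The size of the Serpina3g difference depended on the scale. Over background the level was 20.1 in Msx2-WT (14.03 to 28.0) and 6.33 in Msx2-KO rep 2 (2.05 to 14.8), with overlapping intervals. Relative to the library median it was 1.52 (1.06 to 2.12) in Msx2-WT and 0.208 (0.0676 to 0.486) in Msx2-KO rep 2, without overlap. These values chose the group and are given as a description. The intervals cover counting error only, duplicate reads were kept, and fewer cells with an open site and a less open site in each cell cannot be told apart in sorted pools.

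Serpina3h (ENSMUSG00000041449.16, plus strand, chr12:104247905-104253669), the next gene after Serpina3g, had the strongest region of the cluster. Its start was open in all 3 libraries, with 65 tags in Msx2-WT (50.2 to 82.8), 27 in Msx2-KO rep 1 (17.8 to 39.3) and 32 in Msx2-KO rep 2 (21.9 to 45.2). The levels were 37.4, 56.7 and 40.5 times background. The best summits lay 100, 295 and 116 bases before the start, and Msx2-WT had another summit of 39 tags 561 bases before it. Relative to the library median the levels were 2.83, 2.45 and 1.33. The pseudogene promoter was therefore called in the knockout libraries at more than the level of a typical shared region, and the direction of the difference between Msx2-WT and Msx2-KO changed with the scale.

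Serpina3i (ENSMUSG00000079014.4, plus strand, chr12:104263122-104269372), the protein-coding gene most like Serpina3g upstream, was called in Msx2-WT and Msx2-KO rep 2. Msx2-WT had 32 tags (21.9 to 45.2) 157 bases before the start and a further summit of 30 tags 510 bases before it. Msx2-KO rep 2 had 7 tags (2.81 to 14.4) 170 bases before the start and no upstream summit. Msx2-KO rep 1 listed 4 tags 895 bases after the start, below the threshold. Over background the Msx2-WT level was 18.4 (12.6 to 26.0) and that of Msx2-KO rep 2 was 8.86 (3.56 to 18.3), with overlapping intervals. Relative to the library median the levels were 1.39 (0.952 to 1.96) and 0.292 (0.117 to 0.601), without overlap, as at Serpina3g.

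Serpina3f (ENSMUSG00000066363.12, plus strand, chr12:104214544-104221129) did not share the order of Serpina3g and Serpina3i. It was called in Msx2-WT and Msx2-KO rep 2, a state of 9.64% of all protein-coding genes that Serpina3i shared. It had 13 tags in Msx2-WT (6.92 to 22.2), 657 bases before the start, and 16 in Msx2-KO rep 2 (9.15 to 26.0), 517 bases before the start, and it was not listed in Msx2-KO rep 1. Msx2-KO rep 2 was the higher library, with 20.2 against 7.48 over background and 0.667 against 0.565 relative to the library median, and the intervals overlapped on both scales. Serpina3n (ENSMUSG00000021091.8, plus strand, chr12:104406729-104414329), the secreted inhibitor at the far end of the cluster, was called in Msx2-KO rep 2 with 9 tags (4.12 to 17.1) 77 bases before the start. Msx2-WT listed 7 tags 96 bases before it, with a −log10 q of 1.00, below the threshold. Msx2-KO rep 1 had none listed. A peak in Msx2-KO rep 2 alone was found at 6.50% of all promoters, so the Serpina3n state is a common one.

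Placed on the Serpina3g sequence through the alignments, the summits fell into an upstream and a near set. The upstream set held the Serpina3g summits at 664 (Msx2-WT) and 564 bases (Msx2-KO rep 2, below the threshold) before the Serpina3g start, the Serpina3f summits at aligned positions -717 (Msx2-WT) and -576 (Msx2-KO rep 2), and Msx2-WT summits of Serpina3h at -579 and Serpina3i at -550. The near set held Serpina3h at -100 (Msx2-WT) and -116 (Msx2-KO rep 2) and Serpina3i at -193 (Msx2-WT) and -207 (Msx2-KO rep 2). The Msx2-KO rep 1 summit of Serpina3h lay between them at -312. Serpina3f and Serpina3g had summits in the upstream set alone, whereas Serpina3h and Serpina3i had both in Msx2-WT and only the near one in Msx2-KO rep 2. The 2 sets were drawn after the values were seen.

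**Figure D2:**
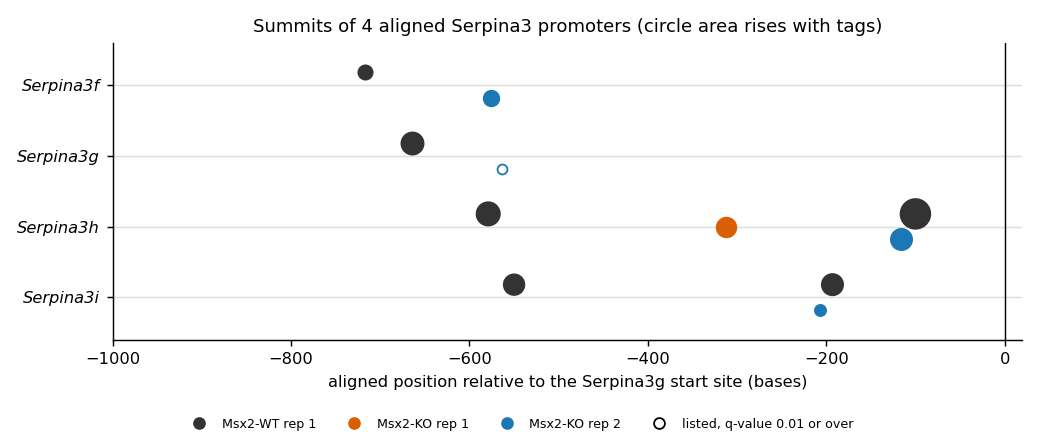
Summits before the start of Serpina3f, Serpina3g, Serpina3h and Serpina3i, placed on the Serpina3g sequence by alignment (x axis, bases from its start site). Circle area rises with the tag number and open circles are below the threshold. Each gene has an upstream summit in Msx2-WT, at -717 to -550, and Serpina3h and Serpina3i have another at -193 to -100.

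Along the whole stretch, the 16 regions were unevenly held by the libraries, with 12 in Msx2-WT, 4 in Msx2-KO rep 1 and 13 in Msx2-KO rep 2. This made 3.90, 1.30 and 4.22 regions per 100 kb, beside 1.17, 0.729 and 1.46 over chromosomes 1 to 19, or 3.34, 1.78 and 2.89 times as many. The best summit of every region lay between genes in the basic annotation. Of the 16, 4 were held by all 3 libraries (25.0%, beside 27.6% of autosomal regions), 5 by Msx2-WT and Msx2-KO rep 2 (31.2%, beside 14.6%), 3 by Msx2-WT alone (18.8%, beside 18.96%) and 4 by Msx2-KO rep 2 alone (25.0%, beside 27.8%). None was in both Msx2-KO libraries without Msx2-WT, a set with 7.54% of autosomal regions. The share in Msx2-WT alone was close to that of the autosomes.

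**Figure D3:**
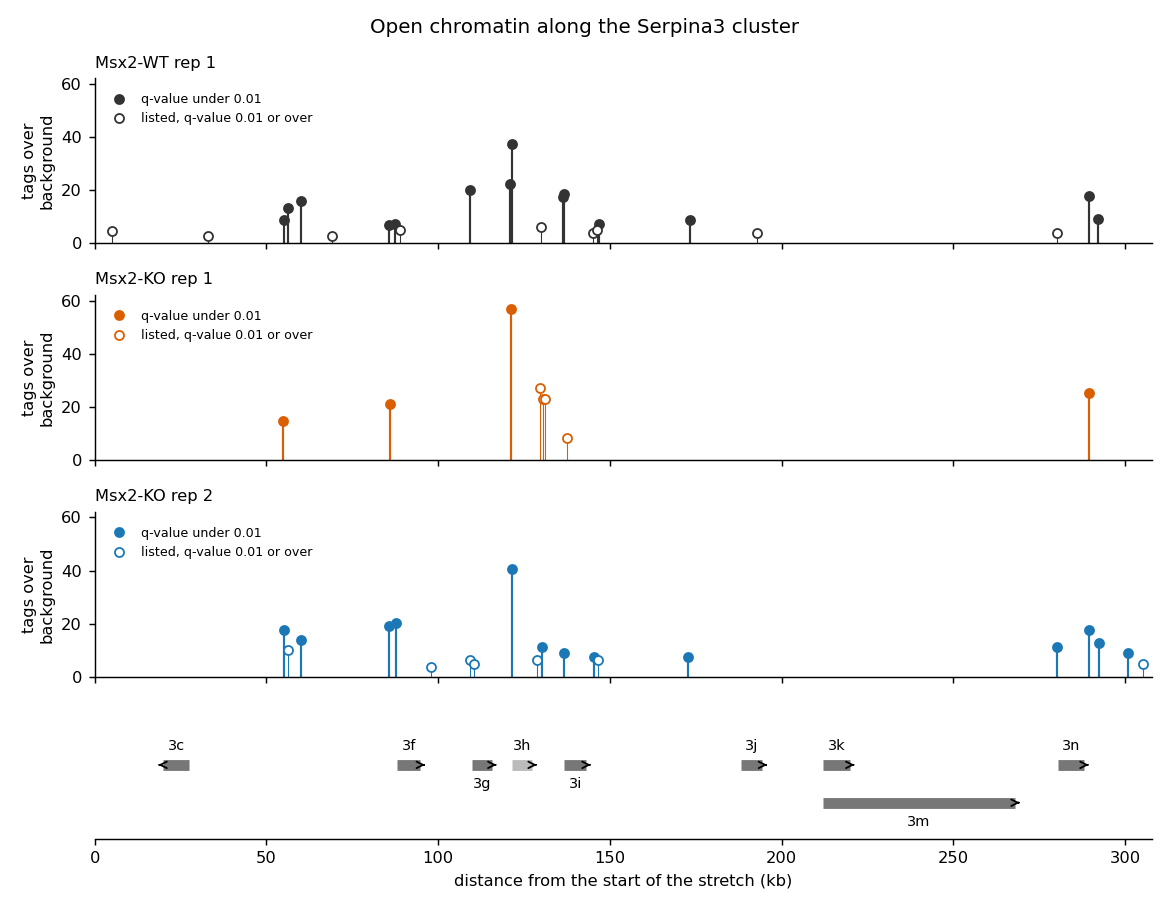
Tags over background (y axis, linear) at every listed summit against the distance from the start of the stretch in kb, in 3 panels by library, with the 9 genes below, arrows giving their strand and the pseudogene in light grey. Open circles are below the threshold. The regions gather between 3c and 3f, at 3f to 3i and past the end of 3n, and the span over 3k and 3m has no listed summit.

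Regions were numbered 1 to 16 along the chromosome. Those in all 3 libraries were region 1 (chr12:104181053-104182013), before the pseudogene Serpina3d-ps, region 4 (chr12:104211720-104212524), before Serpina3f, region 7 at the Serpina3h start and region 14 (chr12:104415288-104416136), past the end of Serpina3n. Region 1 had 15, 7 and 14 tags in Msx2-WT, Msx2-KO rep 1 and Msx2-KO rep 2. Region 4 had 12, 10 and 15 tags, with summits 2581, 2230 and 2430 bases before the Serpina3f start, outside the promoter window. Region 14 had 31, 12 and 14 tags, or 17.8, 25.2 and 17.7 times background. Both knockout libraries thus had open sites before, within and after the run of genes from Serpina3f to Serpina3i.

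The regions in Msx2-WT alone were region 2 (chr12:104182499-104183174), region 6 at the Serpina3g promoter and region 11 (chr12:104272451-104273380), past the end of Serpina3i. Region 2 had 23 tags in Msx2-WT and a listed peak of 8 tags in Msx2-KO rep 2, below the threshold at a −log10 q of 0.53. Region 11 had 13 tags in Msx2-WT and 5 in Msx2-KO rep 2, below the threshold at 1.61. All 3 regions thus had a weak listed peak in Msx2-KO rep 2 and none in Msx2-KO rep 1. Region 6 had the largest fold over the local background of all peaks in the stretch, 10.05 as deposited.

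The regions held by Msx2-WT and Msx2-KO rep 2 were regions 3, 5, 9, 12 and 15. Besides the Serpina3f promoter (region 5) and the Serpina3i promoter (region 9), region 3 (chr12:104186103-104186719) had 28 and 11 tags, region 12 (chr12:104298983-104300087), before Serpina3j, had 15 and 6, and region 15 (chr12:104418344-104418968), beyond Serpina3n, had 16 and 10. Those in Msx2-KO rep 2 alone had 6 to 9 tags and were regions 8, 10, 13 and 16. Region 8 (chr12:104255973-104257238), past the end of Serpina3h, was listed in the other libraries too, with 11 tags in Msx2-WT and 13 in Msx2-KO rep 1, both below the threshold. Region 10 (chr12:104271692-104272176) had 6 tags, beside 7 in Msx2-WT below the threshold. Region 13 is the Serpina3n promoter, and region 16 (chr12:104426665-104427482), with 7 tags, was listed in no other library.

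Of the 9 regions called in both Msx2-WT and Msx2-KO rep 2, the Msx2-WT level was the higher in 4 over background and in 7 relative to the library median. Over the autosomes, Msx2-WT was the higher in 8.6% of 19571 such regions over background and in 60.5% relative to the median. Of the 4 regions called in Msx2-WT and Msx2-KO rep 1, Msx2-WT was higher in 0 over background and in 3 relative to the median, beside 10.8% and 42.4% of 13126. A direction between genotypes over the stretch as a whole was therefore not given.

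**Figure D4:**
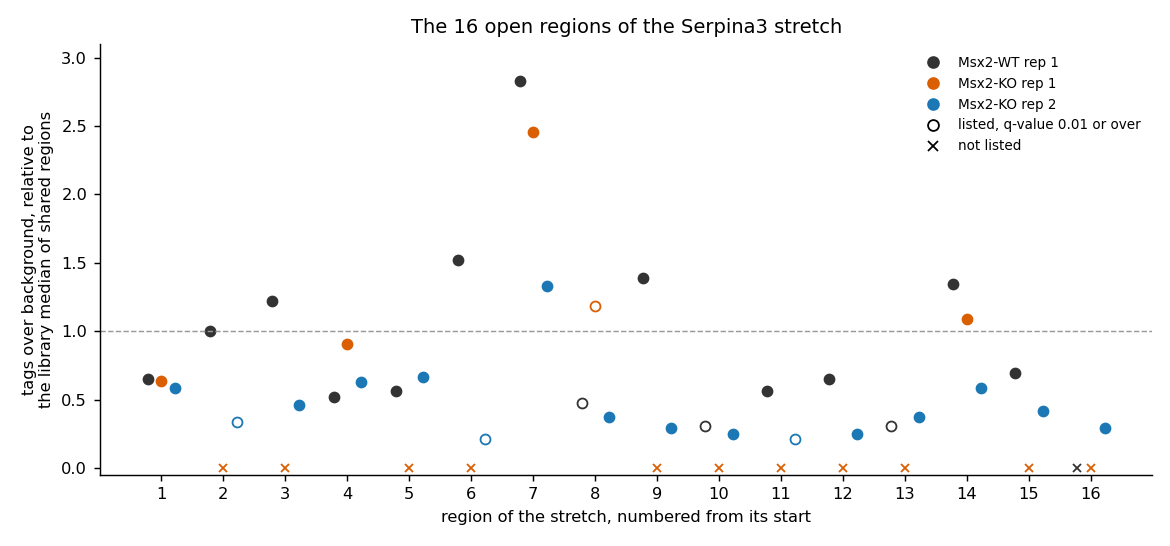
Tags over background at each of the 16 regions, divided by the median of the shared regions of that library (y axis, linear, dashed line at 1), against the region number, by library. Region 7 at Serpina3h stands highest in each library, with 2.83, 2.45 and 1.33. Region 6 at Serpina3g reaches 1.52 in Msx2-WT and 0.208 in Msx2-KO rep 2.

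The open regions repeated each other in sequence. Of the 120 pairs of regions, 16 aligned over at least 60% of the shorter region, at 66.9 to 87.0% identity, and these pairs joined 12 regions into 3 groups. The limit of 60% was set after the values were seen. The first group was regions 1, 5, 6, 7, 9 and 13. Regions 6, 7, 9 and 13 hold the starts of Serpina3g, Serpina3h, Serpina3i and Serpina3n. Region 5 ends before the Serpina3f start, and region 1 matched in the opposite orientation. The second was regions 2 and 12, which matched at 87.0% of 686 columns in opposite orientation. The third was regions 3, 8, 10 and 14.

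The third group lay past the 3′ end of a member or of a related pseudogene. Region 8 began 2304 bases past the end of Serpina3h, region 10 began 2320 bases past that of Serpina3i and region 14 began 959 bases past that of Serpina3n. Region 3 lay 2798 bases past the end of Serpina3e-ps, which is on the minus strand, and matched the others in the opposite orientation. Identity was 82.9% over 613 columns between regions 8 and 14 and 78.7% over 621 between regions 3 and 14. The windows of 300 bases around the best summits of regions 3, 8 and 14 are shown because each holds the AP-1 motif TGANTCA, in capitals. Region 3 is given on the minus strand (chr12:104186292-104186591) and the others on the plus strand (chr12:104256426-104256725 and chr12:104415672-104415971) of GRCm38.
Region 3: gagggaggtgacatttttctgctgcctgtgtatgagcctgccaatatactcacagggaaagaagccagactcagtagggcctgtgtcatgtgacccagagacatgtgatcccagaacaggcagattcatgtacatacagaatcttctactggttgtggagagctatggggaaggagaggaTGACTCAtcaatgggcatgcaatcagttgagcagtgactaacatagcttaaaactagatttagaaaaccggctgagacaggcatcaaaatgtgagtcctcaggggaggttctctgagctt
Region 8: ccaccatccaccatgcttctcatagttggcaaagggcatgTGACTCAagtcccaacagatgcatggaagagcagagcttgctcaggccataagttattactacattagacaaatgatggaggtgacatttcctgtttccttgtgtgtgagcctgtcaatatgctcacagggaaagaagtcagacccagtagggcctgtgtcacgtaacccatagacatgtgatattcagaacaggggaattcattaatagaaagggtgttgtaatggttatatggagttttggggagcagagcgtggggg
Region 14: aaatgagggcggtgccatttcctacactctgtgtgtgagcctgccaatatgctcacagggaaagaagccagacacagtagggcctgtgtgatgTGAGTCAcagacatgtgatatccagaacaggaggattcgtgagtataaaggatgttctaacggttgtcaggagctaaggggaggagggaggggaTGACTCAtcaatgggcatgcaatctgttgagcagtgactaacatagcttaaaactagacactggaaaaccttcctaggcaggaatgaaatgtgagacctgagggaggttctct
The AP-1 motif was in 7 of the 16 summit windows (43.8%), those of regions 2, 3, 4, 8, 10, 14 and 15, beside 15.5% of 33092 windows of this length around autosomal Msx2-WT summits. The windows compared are not quite alike. Those of the stretch are centred on the best summit of any library, which for regions 4, 8 and 10 was Msx2-KO rep 2. The others are centred on every called Msx2-WT summit, also where a peak has several. The windows of all 4 regions of the third group were among the 7, and these regions, as copies of each other, are not separate cases. The windows of regions 3, 10 and 14 share TGACTCAtcaatggg, which in region 10 lies in the window but outside the region. The match in the region 8 window, TGACTCAagtccc, lies at another place. Over the whole regions there were 2 matches in region 3, 4 in region 8 and 3 in region 14. The places of those outside the windows were not compared. None of the windows at the Serpina3f, Serpina3g, Serpina3h, Serpina3i and Serpina3n promoters held it, but region 7 at Serpina3h held 1 match outside its window. The STAT motif was in 4 of 16 windows (25.0%, beside 7.73%), among them those of Serpina3h and Serpina3i. The homeodomain motif TAATTG was in 1 window (6.25%, beside 7.55%), that of Serpina3h.

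Base composition was ordinary. The median G+C content of the 16 regions was 45.8%, beside 49.3% of autosomal regions, and 8.92% of their bases were repeat-masked at the median, beside 9.42%.

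The rest of the serpin family and its partners were described by lists of promoters. Of 15 other genes in the larger Serpina cluster of chromosome 12, which includes the alpha-1-antitrypsin genes, 1 was called in each library, and it was Dicer1, which is not a serpin. No promoter of Serpina1, Serpina5, Serpina6 or the further Serpina genes was called in any library, so within this chromosome region the called serpin promoters were all Serpina3. Of 11 proteases of lysosomes and granules, 3, 2 and 3 were called, Ctsb, Ctsd and Ctsl in Msx2-WT and Msx2-KO rep 2 and the same without Ctsb in Msx2-KO rep 1. These encode lysosomal cathepsins, the class of enzyme that the Serpina3g protein inhibits. Gzmb, Elane, Ctsg, Prtn3 and Cma1, proteases of leukocyte granules, were listed in no library.

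Of 20 interferon and STAT genes, 18, 15 and 17 were called, beside 47.1%, 37.9% and 53.7% of all protein-coding promoters. Stat2, Stat3, Irf9, Jak1, Jak2, Il6st and Osmr were among those called in all 3 libraries, and Stat5b and Irf8 in Msx2-WT alone, with 9 tags each in Msx2-WT and 4 each in Msx2-KO rep 2, below the threshold. Some markers of the interfollicular epidermis had the same state as Serpina3g. Ly6a, which encodes the Sca-1 antigen used as a negative gate, Krt10 and Ivl were called in Msx2-WT alone, with 12, 10 and 15 tags. Krt10 and Ivl were listed below the threshold in Msx2-KO rep 2 with 5 tags each. That is 6.33 times background, beside 5.75 for Krt10 and 8.63 for Ivl in Msx2-WT. Sbsn was called in Msx2-WT and Msx2-KO rep 2 with 45 and 17 tags, and Msx2-KO rep 1 listed 5 tags below the threshold. Grhl1, of the same list, was called in all 3 libraries, at 27.6, 58.8 and 64.5 times background. Summed over the called promoters of that list, the level relative to the library median was 5.65 in Msx2-WT, 2.55 in Msx2-KO rep 1 and 2.83 in Msx2-KO rep 2. Promoters below the threshold add nothing to these sums, which therefore partly repeat the calls. In Msx2-KO rep 1 the sum was that of Grhl1 alone. Krt1 was listed in no library. Over background the sums were 74.8, 58.8 and 86.1, so that the order of Msx2-WT and Msx2-KO rep 2 changed with the scale. The called promoters of the leukocyte list summed to 0.957, 0 and 0.333 relative to the library median, with Cd247 and H2-Ab1 called in Msx2-WT alone and Ikzf1 in Msx2-KO rep 2. Below the threshold, Msx2-KO rep 1 listed Lcp2 with 3 tags and Msx2-KO rep 2 listed H2-Ab1 with 4. The part of other cells in the Serpina3g difference was not tested.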

How the data were processed

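Omni-ATAC-seq peak lists of 3 libraries, 1 Msx2-WT and 2 Msx2-KO, were used, each with its own list. From the study's methods and the submitters' processing notes, reads were trimmed (Trimmomatic), aligned by the authors with BWA in Partek to GRCm38/mm10, freed of mitochondrial reads and passed to MACS2 with duplicates kept. The MACS2 version is not given in the sources used here. The authors deposited a fold enrichment (a ratio of tags to local background) and −log10 p and −log10 q values per summit. The deposited score column was not used. The study's methods name a q-value limit of 0.01, but the deposited lists do not keep to it and reach down to a p-value of 0.01, so the limit on q was applied here.

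The whole tag number followed from the deposited fold together with −log10 p, which gave one for at least 99.9% of summits in each library (99.948% in Msx2-WT), and the commonest local background stood for depth. This step and the region matching were tested on simulated data. Promoters followed protein-coding transcripts of the basic GENCODE M21 annotation, with a window of 1500 bases as in the study. Upstream sequences and regions were compared by local alignment. Samples were grouped by the labels. All 9 members, all 16 regions, and those list genes were named whose state in Msx2-WT was unlike that in each Msx2-KO library. The members and lists were chosen with earlier results of these data known. Alternatives were the peak threshold, equal list lengths, the promoter window, placement and transcripts, flanks of 0 and 50 kb, the rule for shared regions, and leaving out each Msx2-KO library. Leaving one out of the counts of all regions and of promoters was added after the data were seen. RNA-seq was not used here. Python 3.11.15, NumPy 2.4.6, SciPy 1.17.1, pandas 2.3.3, Biopython 1.88 and matplotlib 3.10.9 were used.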

Additional observations from a re-analysis of the deposited data

How the results depend on the processing

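No paired analysis was possible, because the labels do not pair Msx2-WT with Msx2-KO libraries and a shared replicate number is not a pairing. The Serpina3g promoter peak stayed in Msx2-WT alone (1 library) under 5 of 7 alternatives, was present in 2 libraries with every deposited peak, and in 0 with a promoter window of 500 bases, which its summit lies outside. Members with a promoter peak in any library numbered 4, and 2 with that window. The wider window of 3000 bases added Serpina3f in Msx2-KO rep 1. The 16 regions became 10 at a −log10 q of at least 5, 10 once the lists were of equal length and 25 when all deposited peaks were kept. The 3 regions in Msx2-WT alone became 5 under each of these 3 settings, 6 by 50% reciprocal overlap and 7 by summits within 100 bases. Leaving out an Msx2-KO library gave 3 to 8 regions in Msx2-WT alone, with 8 without Msx2-KO rep 2, 12 to 16 regions in all and 3 to 4 members with a promoter peak. The density ratio to the autosomes in Msx2-WT fell to 1.66 with every deposited peak, and the ratios of 1.78 and 2.89 in the Msx2-KO libraries became 1.43 and 2.01. With lists of equal length that of Msx2-KO rep 2 was 1.38, and at a −log10 q of at least 5 it was 1.92 and that of Msx2-KO rep 1 was 2.73. Depth, lowest in Msx2-KO rep 1, limits every statement that a peak was absent.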

Other observations

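Serpins of clade B, which work inside cells and lie on other chromosomes than the Serpina3 genes, were read in the same way. Of 8 genes, 3 had a called promoter in Msx2-WT and 5 in each Msx2-KO library, beside 47.1%, 37.9% and 53.7% of all protein-coding promoters, Msx2-WT first. Serpinb5, known as maspin, Serpinb6a and Serpinb8 were called in all 3 libraries. Serpinb1a, an inhibitor of neutrophil elastase, and Serpinb9, an inhibitor of granzyme B, were called in each Msx2-KO library but stayed below the threshold in Msx2-WT. Serpinb1a had 6 tags in Msx2-WT, below the threshold, 6 in Msx2-KO rep 1 and 9 in Msx2-KO rep 2. Serpinb9 had 6 tags in Msx2-WT, below the threshold, 9 in Msx2-KO rep 1 and 16 in Msx2-KO rep 2. Promoters with that state made up 2.32% of protein-coding genes.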
